A study of Mus musculus with 2 samples.

Results

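The V segments of the T cell receptor beta and alpha chains were taken as every annotated gene whose symbol starts with Trbv or Trav, which gave 163 of 32285 genes, 35 of them Trbv and 128 Trav. They were described across 2 single-cell RNA libraries made from tumours of C57BL/6 mice. Cells were sorted for CD45, which leukocytes carry, and for CD90.2, a surface protein of T cells and some innate lymphocytes. One library was labelled WT (wild type) and the other Dapl1-KO (deficient for Dapl1). The study asked what expression changes tumour T cells show when Dapl1 is missing. The tumour, the age of the mice, the deleted part of Dapl1 and the number of animals in each library are not given in the sources used here. Each label has 1 library, so no comparison has a replicate check, a test or a p-value. Intervals are exact 95% Clopper-Pearson intervals and cover counting error only.

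A T cell builds each receptor chain by joining 1 V segment to shorter segments and a constant region, and all its daughters inherit that joint. The V segment forms the part of the chain that carries the first loops contacting peptide and MHC. Cells that grew from 1 ancestor therefore share a Trbv and a Trav segment, while unrelated cells can also share them by chance. A naive population holds many segments, and expansion of a few clones raises the share of the segments those clones use. Some Trav segments, marked with dv in the symbol, can also join to the delta chain of gamma-delta T cells.

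The segments that the results turn on are shown by their last 90 coding bases, which end where the V segment meets the joint. Sequences come from the GENCODE M21 transcripts for GRCm38, and every segment shown lies on the plus strand. Capitals mark the codon of the conserved cysteine that opens the third, most variable loop. Trbv19 lies at chr6:41178375-41179048, Trbv20 at chr6:41188273-41188977, Trbv12-1 at chr6:41113550-41114067, Trbv12-2 at chr6:41118851-41119364 and Trbv17 at chr6:41163062-41163556. Trav3-3 lies at chr14:53665929-53666506 and Trav6-7-dv9 at chr14:53709902-53710419.
Trbv19: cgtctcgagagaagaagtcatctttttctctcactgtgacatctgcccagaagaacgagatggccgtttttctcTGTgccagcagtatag
Trbv20: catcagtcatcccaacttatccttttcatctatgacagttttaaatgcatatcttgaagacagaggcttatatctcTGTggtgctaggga
Trbv12-1: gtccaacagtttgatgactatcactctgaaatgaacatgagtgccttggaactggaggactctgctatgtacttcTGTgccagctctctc
Trbv12-2: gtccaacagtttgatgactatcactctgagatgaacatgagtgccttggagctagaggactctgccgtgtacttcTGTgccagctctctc
Trbv17: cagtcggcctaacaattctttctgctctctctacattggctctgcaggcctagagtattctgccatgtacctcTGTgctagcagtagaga
Trav3-3: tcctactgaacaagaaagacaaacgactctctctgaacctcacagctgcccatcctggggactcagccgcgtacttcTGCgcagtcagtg
Trav6-7-dv9: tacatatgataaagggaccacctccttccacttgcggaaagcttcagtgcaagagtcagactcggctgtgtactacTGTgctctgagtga
Trbv12-1 and Trbv12-2, with Trbv13-1 between them, are of like sequence, with 88.3% identity over the coding transcript and 45 differing bases. Trav3-3 has copies, Trav3d-3 and Trav3n-3, with 97.9% identity and 9 differing bases each.

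The Trav part of the locus holds further near-copies, which bears on every alpha value below. In all, 93 of 128 Trav segments were at least 97% identical to another segment, against 0 of 35 Trbv segments, and the median identity to the nearest other segment was 98.8% for Trav and 69.9% for Trbv. Trav14n-3 at chr14:53370077-53370575 and Trav14d-3-dv8 at chr14:53078452-53079045, which appear among the results, differ at 12 bases, and 4 of those, in capitals, lie in the stretch shown.
Trav14n-3: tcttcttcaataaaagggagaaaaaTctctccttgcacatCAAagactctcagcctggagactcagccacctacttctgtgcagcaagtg
Trav14d-3-dv8: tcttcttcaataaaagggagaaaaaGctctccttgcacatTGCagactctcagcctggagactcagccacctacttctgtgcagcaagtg
Reads that fall on identical stretches can be assigned to either copy or dropped, so a Trav value belongs to the row as counted, and the split between copies is uncertain.

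Of the 35 Trbv segments, 25 had at least 1 UMI (unique molecular identifier, a counted molecule) in a kept cell, and the 10 at 0 are all among the 13 that the annotation calls pseudogenes. All 22 Trbv segments annotated as genes had UMIs. Of the 128 Trav segments, 87 had a UMI and 41 were at 0. Of these 41, 35 have a sequence identical to another row, among 48 such rows in all. Trbv segments held 2813 UMIs in the WT-labelled library and 3574 in the Dapl1-KO-labelled library, and Trav segments held 3939 and 4612. Trbv19 had the most UMIs of the beta segments over both libraries (1218) and Trav3-3 of the alpha segments (777). Three-prime counting reads the far end of the message, so V segments give few UMIs, and segments may differ in how well they are read.

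The deposited tables held 154408101 UMIs over 16673 barcodes for the WT-labelled library and 206322042 UMIs over 19662 barcodes for the Dapl1-KO-labelled library. Barcodes shared by both tables numbered 13132, and only the larger copy was kept. Filters left 8992 and 10098 cells, whose median depth was 7356 and 8463.5 UMIs. The library labelled Dapl1-KO held 3530 Dapl1 UMIs (24.4 CPM, which scales UMIs to the total of a library or state) against 3605 (30.5 CPM) in the other, which leaves its label unchecked, since counted 3′ ends may lie outside a deleted part. In the WT-labelled library, 73.9% of cells had Xist or Tsix UMIs alone, and 10.8% had only Y-linked ones. In the Dapl1-KO-labelled library these shares were 0.0891% and 69.5%. The label and this difference in sex-linked UMIs cannot be told apart in most cells, and the main results are given again by sex-linked genes below.

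Both copies of a shared barcode usually held the same V segment. Where both copies had a Trbv call and the larger was in the WT-labelled library, 376 of 389 (96.7%, 94.4 to 98.2) held the same segment in both, against 10.8% from the segment shares alone. With the larger copy in the Dapl1-KO-labelled library the value was 181 of 193 (93.8%, 89.4 to 96.7) against 9.02%. For Trav, 351 of 377 (93.1%) and 148 of 164 (90.2%) copies held the same segment, against 2.98% and 4.01%.

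A cell was given the Trbv segment with the most UMIs when that segment held at least 70% of its Trbv UMIs, and likewise for Trav. Of 1941 cells with a Trbv UMI in the WT-labelled library, 1743 got a call, as did 2243 of 2541 in the Dapl1-KO-labelled library. Trav calls were made in 2038 of 2371 and 2419 of 2828 cells. Most Trbv calls rest on little, since 70.7% and 72.0% of cells with a Trbv UMI had 1 UMI. Cells without the receptor had few V UMIs. Among natural killer cells, which carry no alpha-beta receptor, 0 of 282 had a Trbv UMI in the WT-labelled library, which allows up to 1.06%, and 0.525% of 381 did in the other, with median depths of 6544 and 6751 UMIs. Their Trav shares were 1.06% and 0.525%. Myeloid cells had no Trbv UMI in 29 and 94 cells, which allows up to 10.3% and 3.19%.

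T cells were sorted into states by marker UMIs that include no V segment. CD8 T cells were split into cycling cells (at least 2 of Mki67, Top2a, Birc5, Pclaf and Rrm2, genes of DNA replication and mitosis), PD-1 TIM-3 cells (Pdcd1 and Havcr2, inhibitory receptors of chronically stimulated T cells), naive cells (no Pdcd1, at least 2 genes of a naive marker list that includes Ccr7, Lef1, Tcf7 and S1pr1) and effector cells (no Pdcd1, with Gzma or Ly6c2). The naive gate held 1488 cells in the WT-labelled library and 1059 in the Dapl1-KO-labelled library. The effector gate held 304 and 605, the PD-1 TIM-3 gate 645 and 772, and the cycling gate 1084 and 1974. CD4 conventional T cells numbered 568 and 564, and regulatory T cells, which carry Foxp3, 637 and 739. Regulatory cells had Ikzf2 and Ctla4 at 712 and 1148 CPM in the WT-labelled library, above 205 and 505 CPM in CD4 cells.

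Among naive, PD-1 TIM-3 and cycling CD8 cells, the share of cells with a Trbv UMI was lowest in naive cells, which also had the fewest UMIs per cell. It was 17.3% and 23.3% in naive cells (medians of 7602.5 and 8705 UMIs), 33.0% and 39.2% in PD-1 TIM-3 cells (13194 and 12305) and 46.5% and 44.8% in cycling cells (29781.5 and 26180), in the order WT and Dapl1-KO. With each cell thinned to 3000 UMIs these became 6.88% and 9.42%, 8.86% and 12.8%, and 7.76% and 7.52%. Regulatory T cells stood at 6.00% and 6.23% for Trbv after thinning and at 18.4% and 19.3% for Trav, the highest Trav shares of the 6 states in both libraries next to CD4 cells at 16.0% and 18.9%. Set against the constant region of the same chain, naive cells had 19.4 and 13.2 Trav UMIs per 100 Trac UMIs, and cycling cells 4.31 and 4.02. Trbv UMIs ran from 1.16 to 2.79 per 100 Trbc1 and Trbc2 UMIs over all states and libraries.

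Concentration was measured as the percent of pairs of cells in a state that carry the same segment, with a standard error (SE) from the number of cells. In naive CD8 cells 8.90% (SE 0.89) of pairs shared a Trbv segment in the WT-labelled library and 8.46% (SE 0.91) in the Dapl1-KO-labelled library, over 244 and 226 cells. In cycling CD8 cells the values were 12.8% (SE 1.14, 422 cells) and 10.7% (SE 0.48, 742 cells), and in PD-1 TIM-3 cells 11.2% (SE 1.21) and 11.3% (SE 0.90). Effector cells stood at 9.47% (SE 1.92) and 6.59% (SE 0.74), CD4 cells at 6.86% (SE 0.84) and 7.74% (SE 0.75) and regulatory T cells at 9.12% (SE 1.61) and 7.02% (SE 0.74). Between the libraries these Trbv values lay close together in naive and PD-1 TIM-3 cells.

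For the alpha chain the libraries lay further apart in PD-1 TIM-3 and cycling CD8 cells. In PD-1 TIM-3 cells 4.14% (SE 0.66, 150 cells) of pairs shared a Trav segment in the WT-labelled library and 8.31% (SE 1.30, 201 cells) in the Dapl1-KO-labelled library. In cycling cells the values were 5.44% (SE 0.54, 333 cells) and 8.18% (SE 0.77, 628 cells). Naive cells stood lower in both, at 2.54% (SE 0.20) and 3.31% (SE 0.35), as did CD4 cells at 2.72% (SE 0.38) and 2.68% (SE 0.36) and regulatory T cells at 3.23% (SE 0.47) and 2.49% (SE 0.26). Effector cells had 3.24% (SE 1.08) and 2.74% (SE 0.48). Drawn down to 100 cells, naive cells held 44.4 and 39.9 Trav segments, and cycling cells 34.0 and 34.1, so a lower number of segments in cycling cells was seen in both libraries. The order of the libraries in PD-1 TIM-3 cells turned around when 2 UMIs were required for a call (4.95% in the Dapl1-KO-labelled library), or when Y-linked cells alone were taken (12.1% in the WT-labelled library). The 12.1% rests on 32 called cells, 10 of them with Trav14n-3, too few to give a direction. With all Trav rows of the same subgroup number joined, the libraries lay closer. The values were 11.1% and 14.2% in PD-1 TIM-3 cells and 12.6% and 13.4% in cycling cells. Such subgroups join distinct segments, such as Trav3-3 and Trav3-4 (91.9% identity), as well as near-copies. In the Dapl1-KO-labelled library the PD-1 TIM-3 value was 5.23% after thinning and 16.8% with barcodes of 1 library. The cycling value there was 5.26% with barcodes of 1 library and 14.4% with 2 UMIs.

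**Figure D1:**
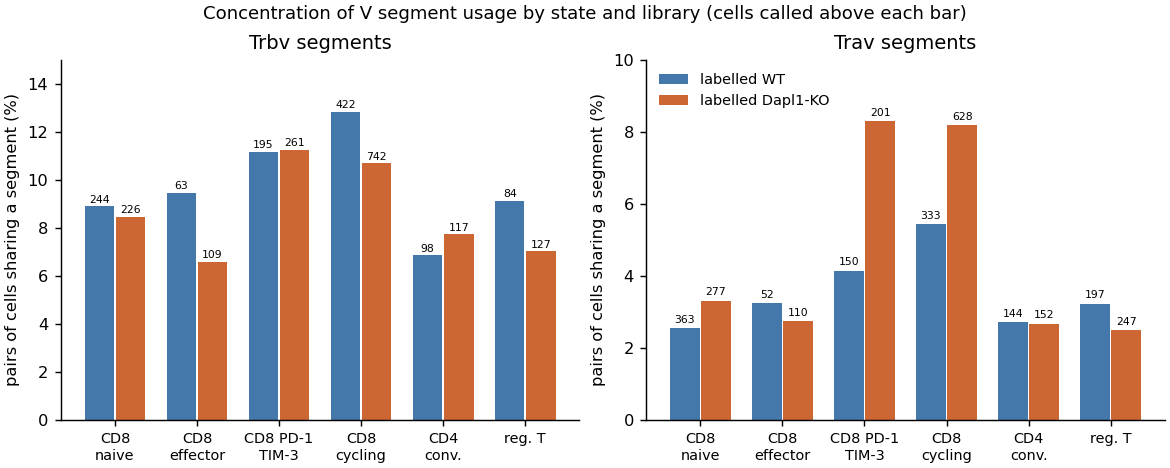
Percent of pairs of cells that share a Trbv segment (left) or a Trav segment (right) in 6 marker-gated states, for the libraries labelled WT and Dapl1-KO, with the number of called cells above each bar. Trav sharing was highest in PD-1 TIM-3 cells (8.31%) and cycling cells (8.18%) of the Dapl1-KO-labelled library, and Trbv sharing in cycling cells of the WT-labelled library (12.8%).

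Naive CD8 cells used much the same beta segments in both libraries. Trbv12-2 led with 52 of 244 cells (21.3%, 16.3 to 27.0) and 48 of 226 (21.2%, 16.1 to 27.2). Trbv19 followed in the WT-labelled library at 12.3% (8.45 to 17.1) and stood at 7.08% (4.10 to 11.2) in the other. Trbv15 had 7.79% and 4.42%, Trbv26 4.92% and 2.21%, Trbv16 6.56% and 7.96%, Trbv3 5.33% and 7.96%, and Trbv1 1.23% and 4.87%. All these intervals overlapped. Of 22 Trbv and 72 Trav segments called in naive cells, 0 had intervals apart between the libraries (0% of either).

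Alpha usage in naive cells was spread thinly. Trav16n led in both, with 6.06% (3.84 to 9.03) of 363 cells and 10.1% (6.82 to 14.3) of 277 cells. Trav16, Trav13-1 and Trav3-3 each held 5.51% in the WT-labelled library and 6.86%, 5.05% and 5.05% in the Dapl1-KO-labelled library. The widest gap was that of Trav16n, followed by Trav14d-3-dv8 (3.31% and 0.722%), Trav19 (1.93% and 4.33%), Trav17 (0.275% and 2.53%) and Trav7-5 (2.75% and 0.722%), all with overlapping intervals. The naive gate was not equally free of effector messages. Gzma, a granule protease of effector cells, stood at 64.6 CPM in the WT-labelled library and 529 CPM in the Dapl1-KO-labelled library. Of 15 markers not used to gate, 9 reached 20 CPM in a library, and of these Gzmb and Gzmk passed 2-fold. The part of these messages in segment usage was not tested.

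Effector CD8 cells had few calls, 63 and 109 for Trbv and 52 and 110 for Trav. Trbv12-2 and Trbv19 each held 12 of 63 cells (19.0%, 10.2 to 30.9) in the WT-labelled library and 12 of 109 (11.0%, 5.82 to 18.4) in the other. Trbv14 went from 1.59% (0.0402 to 8.53) to 11.0%, Trbv16 from 3.17% to 11.0% and Trbv2 from 11.1% to 3.67%. Trav16n stood at 11.5% and 3.64%, Trav13-1 at 1.92% and 7.27%, Trav6-7-dv9 at 9.62% and 7.27%, Trav7-4 at 5.77% and 2.73% and Trav4-4-dv10 at 5.77% and 1.82%. Trav3-4 was called in 0 and 5 cells and Trav9-2 in 2 and 0. None of the 22 Trbv or 55 Trav segments had intervals apart (0% of either), and Gzma, a gene of the gate, stood at 940 and 3147 CPM. Of 15 markers not used to gate, 13 reached 20 CPM in a library. Among these, Gzmb (632 and 1373 CPM) passed 2-fold upward in the Dapl1-KO-labelled library. Tox (96.4 and 47.2 CPM) and Ikzf2 (133 and 63.8 CPM) passed it downward. The part of these genes was not tested.

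PD-1 TIM-3 cells shared their leading beta segment but not the ones behind it. Trbv19 led in both libraries, with 48 of 195 cells (24.6%, 18.7 to 31.3) and 56 of 261 (21.5%, 16.6 to 26.9). Trbv20 was in 6 of 195 cells (3.08%, 1.14 to 6.58) in the WT-labelled library and in 46 of 261 (17.6%, 13.2 to 22.8) in the Dapl1-KO-labelled library, where it was second. The reverse held for Trbv3, which was in 28 cells (14.4%, 9.76 to 20.1) and 3 cells (1.15%, 0.238 to 3.32). With Y-linked cells alone Trbv3 was 1.36 points higher in the Dapl1-KO-labelled library. Only 34 such cells had a Trbv call in the WT-labelled library, where 3 cells make 8.82%, too few to give a direction.

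The beta intervals lay apart for 6 of 21 segments (28.6%) in PD-1 TIM-3 cells. Higher in the Dapl1-KO-labelled library were Trbv20, Trbv13-1 (0.513% and 5.75%) and Trbv13-2 (0.513% and 5.36%). Lower there were Trbv3, Trbv2 (10.8% and 2.30%) and Trbv4 (4.62% and 0%, where 0 of 261 allows up to 1.15%). Trbv12-1 had 4.62% and 11.1%, with overlapping intervals. When a call needed 2 UMIs the intervals of 1 segment lay apart, and after thinning those of 0. The Trbv20 difference kept its direction in all 9 alternatives, between 5.42 and 31.3 points, with intervals apart in 6.

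Trav3-3 gave the widest gap among alpha segments of PD-1 TIM-3 cells. It was in 4 of 150 cells (2.67%, 0.731 to 6.69) in the WT-labelled library and in 49 of 201 (24.4%, 18.6 to 30.9) in the Dapl1-KO-labelled library. Intervals lay apart for 4 of 57 segments (7.02%). That number was 0 when a call needed 2 UMIs and 0 after thinning, and 2 with subgroups joined or with Y-linked cells alone. The Trav3-3 difference kept its direction in all 8 alternatives, between 17.9 and 24.2 points, with intervals apart in 6. Joined subgroups were not among these 8, so the difference was not checked with near-copies joined. Trav7-1 was the other higher one (0 cells and 5.47%, where 0 of 150 allows up to 2.0%). Trav14n-3 (10.0% and 0.995%) and Trav13-2 (5.33% and 0%, where 0 of 201 allows up to 1.49%) were lower. Trav6-7-dv9, which led in the WT-labelled library, had 12.7% (7.80 to 19.1) and 7.96% (4.62 to 12.6), and Trav13n-4 4.0% and 7.96%. Of 15 markers not used to gate, 13 reached 20 CPM in a library. Among these, Gzmb and Prf1, which make the killing granule, passed 2-fold in this gate. Both were higher in the Dapl1-KO-labelled library, and their part was not tested.

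Cycling CD8 cells gave the deepest calls and the most segments with intervals apart. Trbv20 was in 8 of 422 cells (1.90%, 0.822 to 3.70) in the WT-labelled library and in 138 of 742 (18.6%, 15.9 to 21.6) in the Dapl1-KO-labelled library, and went from fifteenth to first in rank. Trbv12-1 was in 12 cells (2.84%, 1.48 to 4.91) and 95 cells (12.8%, 10.5 to 15.4). Trbv19 led in the WT-labelled library with 128 cells (30.3%, 26.0 to 35.0) and was second in the other with 133 (17.9%, 15.2 to 20.9).

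In cycling cells 8 of 22 Trbv segments (36.4%) had intervals apart, 3 higher and 5 lower in the Dapl1-KO-labelled library. Trbv13-2 was the third of the higher ones, at 2.37% and 7.68%. Besides Trbv19, the lower ones were Trbv2 (11.1% and 1.35%), Trbv3 (7.58% and 0.404%), Trbv14 (4.03% and 1.08%) and Trbv4 (3.55% and 0.135%). With Y-linked cells alone the Trbv3 difference was 0.454 points the other way. Only 57 such cells had a Trbv call in the WT-labelled library, where 3 cells make 5.26%, too few to give a direction. The Trbv19 difference turned around when a call needed 2 UMIs or cells were thinned, while Trbv20 was higher in the Dapl1-KO-labelled library with intervals apart under all 8 alternatives tried.

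**Figure D2:**
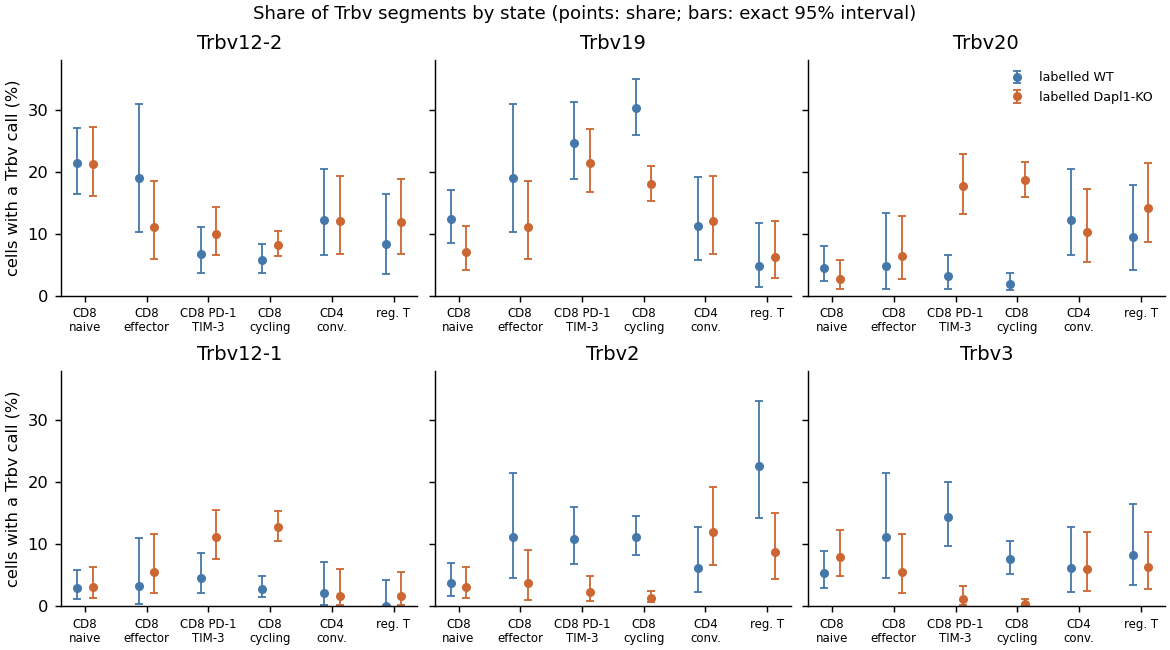
Percent of cells with a Trbv call that carry each of the named Trbv segments, by state and library, with exact 95% intervals (counting error only). Trbv20 stands at 1.90% and 18.6% in cycling cells of the libraries labelled WT and Dapl1-KO, while Trbv12-2 stands at 21.3% and 21.2% in naive cells.

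Of 68 Trav segments in cycling cells, 11 (16.2%) had intervals apart, 7 higher and 4 lower in the Dapl1-KO-labelled library. Trav3-3 was in 23 of 333 cells (6.91%, 4.43 to 10.2) and 156 of 628 (24.8%, 21.5 to 28.4). Trav14-2 had 0.601% and 6.37%, Trav13n-4 1.80% and 5.73%, and Trav8d-2, Trav7-1, Trav4-2 and Trav6-1 were called in 0 of 333 cells, which allows up to 0.901%, and in 2.07% to 3.18% of 628. The lower ones were Trav14d-3-dv8 (40 cells, 12.0%, and 2 cells, 0.318%), Trav6-7-dv9 (14.1% and 6.05%), Trav14n-3 (7.21% and 0.478%) and Trav16 (3.30% and 0.318%). With Y-linked cells alone the Trav14d-3-dv8 difference was 0.368 points the other way. Only 50 such cells had a Trav call in the WT-labelled library, where 3 cells make 6%, too few to give a direction. The number of segments with intervals apart was 4 when a call needed 2 UMIs, 6 with all barcodes and 3 after thinning. It was 5 with subgroups joined and 3 with Y-linked cells alone. The Trav3-3 difference kept its direction in all 8 alternatives, which again left out joined subgroups, with intervals apart in 7.

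**Figure D3:**
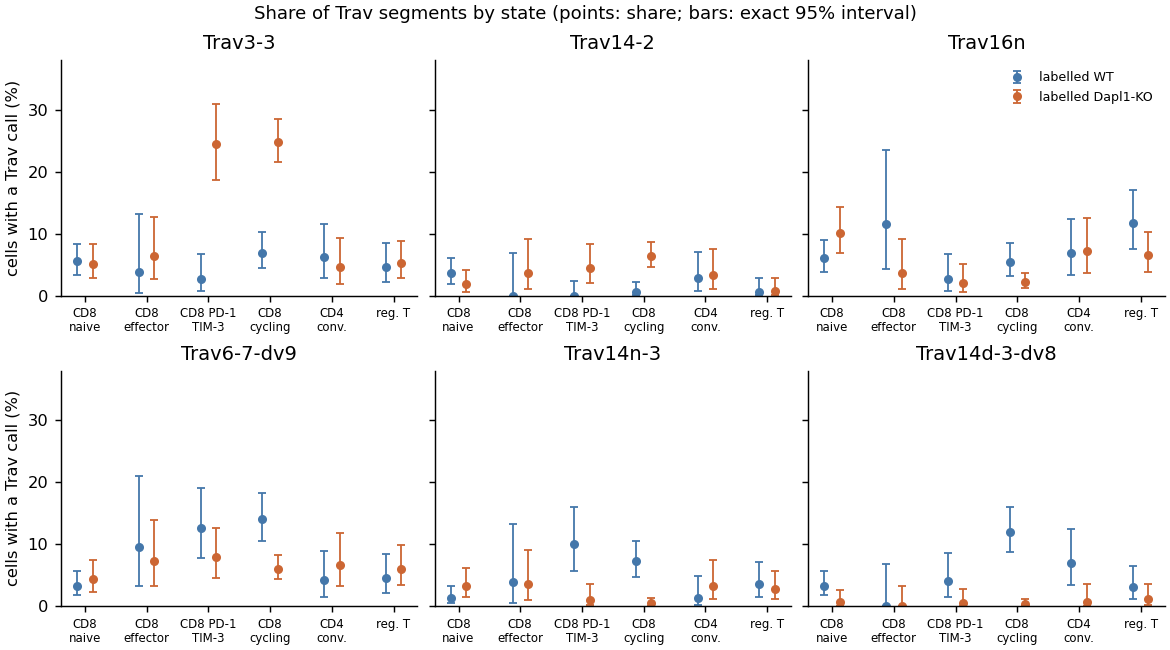
Percent of cells with a Trav call that carry each of the named Trav segments, by state and library, with exact 95% intervals (counting error only). Trav3-3 stands at 24.4% in PD-1 TIM-3 cells and 24.8% in cycling cells of the Dapl1-KO-labelled library, against 5.05% in its naive cells.

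Conventional CD4 cells differed little between the libraries. Trbv12-2 (12.2% of 98 and 12.0% of 117 cells), Trbv19 (11.2% and 12.0%) and Trbv20 (12.2% and 10.3%) stood near each other in both, and Trbv2 had 6.12% and 12.0%. Trbv13-2 had 5.10% and 10.3%, Trbv1 9.18% and 5.98%, and Trbv17 3.06% and 0.855%. Trav14d-3-dv8 showed the widest alpha gap, at 6.94% (3.38 to 12.4) of 144 cells and 0.658% (0.0167 to 3.61) of 152. Trav16n stood at 6.94% and 7.24%. Of 21 Trbv and 64 Trav segments, 0 had intervals apart (0% of either).

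Regulatory T cells used Trbv2 most in the WT-labelled library, in 19 of 84 cells (22.6%, 14.2 to 33.0), and in 11 of 127 (8.66%, 4.40 to 14.97) in the other. Trbv20 led in the Dapl1-KO-labelled library with 14.2% (8.62 to 21.5) and had 9.52% in the WT-labelled library. Trbv12-2 had 8.33% and 11.8%, Trbv1 8.33% and 8.66%, and Trbv16 3.57% and 8.66%. Trbv13-1 was called in 0 of 84 and in 5 cells. Trav16n led in both, with 11.7% (7.55 to 17.0) of 197 cells and 6.48% (3.75 to 10.3) of 247. Trav10n had 5.08% (2.46 to 9.14) and 0.810% (0.0982 to 2.89), and Trav13-2 was called in 0 of 197 and in 3.24%. Of 20 Trbv and 65 Trav segments, 0 had intervals apart (0% of either). Of 15 markers not used to gate, 13 reached 20 CPM in a library. Among these, Prf1 (16.7 and 41.4 CPM), Nkg7 (542 and 1195 CPM) and Cx3cr1 (8.77 and 25.9 CPM) passed 2-fold. All 3 are genes of killer cells and were higher in the Dapl1-KO-labelled library. Gzmb (607 and 553 CPM) and Gzma (70.3 and 61.8 CPM), also genes of such cells, were lower there. The part of these genes was not tested.

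Gamma-delta T cells, gated on Trdc with no Cd4, Cd8a, Cd8b1 or Foxp3, served as a reference for the dv segments. Of 60 and 80 cells with a Trav call, Trav13-4-dv7 was in 18 cells and in 35 (43.8%), against 1.93% and 3.61% of naive CD8 cells. Trav15-1-dv6-1 held 13.3% and 18.8%, Trav15-2-dv6-2 18.3% and 8.75% and Trav21-dv12 5.0% and 3.75%. Trav14d-3-dv8 and Trav16d-dv11 were called in 0 of these cells in both libraries. Trbv UMIs were present in 6.52% and 8.91% of gamma-delta gated cells, above the natural killer cell share. A gate on Zbtb16, a factor of natural killer T cells, held 82 and 70 cells and gave 7 and 5 Trav calls, with Trav11, the alpha segment of invariant natural killer T cells, in 0. Trbv13-2, Trbv29 and Trbv1, the beta segments those cells use, held 0, 0 and 1 of its 5 Trbv calls and 1, 1 and 0 of 10, too few to check the label.

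Sharing across the libraries differed by state. In naive CD8 cells, 8.59% of pairs with 1 cell from each library shared a Trbv segment, beside 8.90% and 8.46% within the libraries. In cycling cells the value across was 8.18%, beside 12.8% and 10.7% within, and in PD-1 TIM-3 cells 8.48%, beside 11.2% and 11.3%. For Trav, pairs across the libraries shared a segment in 2.85% in naive cells (2.54% and 3.31% within), 2.75% in PD-1 TIM-3 cells (4.14% and 8.31%) and 3.45% in cycling cells (5.44% and 8.18%). Within a library, PD-1 TIM-3 and cycling cells shared Trbv segments in 11.7% and 11.0% of pairs and Trav segments in 4.37% and 8.30%.

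Segments also differed in how their CD8 cells spread over states. Over all Trbv calls in CD8 cells, 21.7% and 14.2% were naive. For Trbv12-2 these were 41.9% and 26.8%, and for Trbv19 11.5% and 6.02%. Trbv20 had 11 of 34 cells (32.4%, 17.4 to 50.5) in the naive gate in the WT-labelled library and 6 of 227 (2.64%, 0.976 to 5.66) in the Dapl1-KO-labelled library. Trbv12-1 had 7 of 34 cells there (20.6%, 8.70 to 37.9) in the WT-labelled library, an interval that holds the share over all calls. In the Dapl1-KO-labelled library Trbv12-1 at 4.58% (1.86 to 9.20) and Trbv12-2 at 26.8% (20.5 to 33.9), though of like sequence, lay on opposite sides of it.

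Cells with both a Trbv and a Trav call allowed pairs to be counted. In CD8 cells outside the naive gate there were 241 such cells in the WT-labelled library and 397 in the Dapl1-KO-labelled library. Trbv20 with Trav3-3 was found in 64 of 397 (16.1%, 12.6 to 20.1), where the product of the shares gives 17.8 cells, and in 0 of 241, which allows up to 1.24%. Of the 64 cells, 38 were cycling, 17 PD-1 TIM-3, 9 other CD8 and 0 effector, and 54 had Y-linked UMIs alone. Trav3-3 was the alpha segment of 64 of the 86 Trbv20 cells there (74.4%, 63.9 to 83.2). The pair was seen in 1 naive cell of the WT-labelled library.

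The pair made up 17 of 69 PD-1 TIM-3 cells with both calls (24.6%, 15.1 to 36.5) and 38 of 250 cycling cells (15.2%, 11.0 to 20.3) of the Dapl1-KO-labelled library. A readout the pair did not use is the constant gene of the beta chain, since a rearranged beta chain joins to Trbc1 or to Trbc2. These genes are near-identical and their split is uncertain. The median share of Trbc1 among Trbc UMIs was 41.5% in the 64 cells (quartiles 34.6 and 52.3), with a narrower spread than in all non-naive CD8 cells of that library (31.3%, quartiles 3.57 and 53.6). All Trbv20 cells there had 40% (quartiles 28.1 and 50) and all Trav3-3 cells 41.7% (33.3 and 51.1). Both sets include cells of the pair, and the readout does not set the pair apart from them. No J segment could be read, since J rows held almost no UMIs.

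Next in the Dapl1-KO-labelled library came Trbv19 with Trav6-7-dv9, in 14 cells (3.53%, 1.94 to 5.85). That pair led in the WT-labelled library with 20 cells (8.30%, 5.14 to 12.5), and its median Trbc1 share was 68.1% there and 46.9% in the Dapl1-KO-labelled library. Trbv13-2 with Trav8d-2 had 13 cells (3.27%, 1.75 to 5.53) and a median Trbc1 share of 72.1%. Trbv19 with Trav4-2 had 11, Trbv12-1 with Trav13n-4 10, Trbv12-1 with Trav14-2 8 and Trbv13-2 with Trav6-5 8 cells.

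In the WT-labelled library, Trbv17 with Trav14n-3 had 12 cells (4.98%, 2.60 to 8.54), where the product of the shares gives 1.92. They were 12 of the 22 Trbv17 cells with both calls, their median Trbc1 share was 0.631%, and 7 had Y-linked UMIs and 0 Xist or Tsix. Trbv4 with Trav14d-3-dv8 had 9 cells, 8 of them with Xist or Tsix, as did Trbv14 with Trav6-7-dv9, and they were 9 of 13 Trbv4 and 9 of 11 Trbv14 cells. Trbv19 with Trav16 had 9 cells and Trbv19 with Trav9n-4 8.

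Pairs of at least 5 cells held 83 of 241 cells (34.4%, 9 pairs) in the WT-labelled library and 169 of 397 (42.6%, 14 pairs) in the Dapl1-KO-labelled library. In naive, effector, CD4 and regulatory T cells 0 pairs reached 5 cells. Only 74 and 63 naive, 12 and 26 effector, 29 and 30 CD4 and 31 and 48 regulatory T cells had both calls. A fixed limit of 5 cells is harder to reach among so few, so these states cannot be compared with the larger pools by it. The percent of pairs of cells sharing both segments was 0.407% (SE 0.30) and 0.819% (SE 0.53) in naive cells, 2.20% (SE 0.99) and 6.27% (SE 2.40) in PD-1 TIM-3 cells and 2.0% (SE 0.50) and 3.13% (SE 0.65) in cycling cells.

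Cells of the largest pair differed in effector messages from the other cells with both calls outside the naive gate of the Dapl1-KO-labelled library. Gzmb, a granzyme of killing granules, was at 1185 CPM against 2280. It was detected in 98.4% of the pair's cells and in 94.6% of the others. Gzmk was at 197 CPM against 132, Tox, a factor of exhausted cells, at 189 against 126, and Pdcd1 at 324 against 271. Ctla4 went the other way, at 260 CPM against 340. Nkg7 (2334 and 2398 CPM), Cx3cr1 (26.6 in both), Lag3 (229 and 219 CPM) and Havcr2 lay close together. The other cells include the effector gate, which Gzma or Ly6c2 define and which holds 0 cells of the pair. Within cycling cells, 38 of the pair against 212 others, Gzmb was at 1299 CPM against 2381 and Gzma at 15.9 against 109. Gzmk stood there at 176 CPM against 125, Tox at 178 against 131 and Ctla4 at 250 against 333. The Trbv17 and Trav14n-3 cells had Gzmk at 16.2 CPM against 115 and Gzmb at 2633 against 1476. In Trbv19 and Trav6-7-dv9 cells, Il7r, the receptor for IL-7, stood at 3.18 CPM against 41.3 in the WT-labelled library and at 3.01 against 39.7 in the other. The Il7r values of the pair rest on 2 UMIs in 20 cells and 1 UMI in 14 cells, too few to give a level. All values of this paragraph are of few cells in 1 library, with no test.

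Because the WT-labelled library held cells with either kind of sex-linked UMI, non-naive CD8 cells were also taken apart by sex-linked UMIs. This gave 670 Trbv-called cells with Xist or Tsix alone and 125 with Y-linked UMIs alone in the WT-labelled library, and 1116 with Y-linked UMIs alone in the Dapl1-KO-labelled library. Trbv20 stood at 2.09%, 4.80% and 17.2% in that order. Trbv12-1 stood at 4.03%, 0% and 12.1%, where 0 of 125 allows up to 2.40%. Trav3-3 stood at 4.53%, 8.49% and 21.8% of 530, 106 and 909 cells. These segments were thus higher in the Dapl1-KO-labelled library than in either kind of cell of the other library.

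Some other segments differed by sex-linked genes within the WT-labelled library. Trbv3 stood at 12.5%, 0.8% and 1.79% and Trav14d-3-dv8 at 8.49%, 0% and 0.550%. Trbv2 stood at 11.9% (9.58 to 14.6), 4.80% (1.78 to 10.2) and 1.70%, with overlapping intervals within the WT-labelled library. Trbv17 (0.597%, 23.2% and 3.85%) and Trav14n-3 (4.53%, 17.0% and 1.10%) were highest in the Y-linked cells of the WT-labelled library. Trbv19 stood at 24.9% (167 cells), 36% (45 cells) and 18.0% (201 cells), and Trbv12-2 at 7.91%, 7.20% and 9.23%. Within the WT-labelled library the intervals of Trbv19 overlapped (21.7 to 28.4 and 27.6 to 45.1), as did those of Trbv12-2. Trbv sharing was 11.2%, 19.7% and 10.3% of pairs and Trav sharing 4.43%, 6.58% and 6.80%, so the 125 Y-linked cells of the WT-labelled library were the most concentrated of the 3 for Trbv. Among Y-linked cells alone, Trbv3 in PD-1 TIM-3 and cycling cells and Trav14d-3-dv8 in cycling cells were no longer lower in the Dapl1-KO-labelled library. These rest on 34, 57 and 50 called cells in the WT-labelled library, too few to give a direction.

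**Figure D4:**
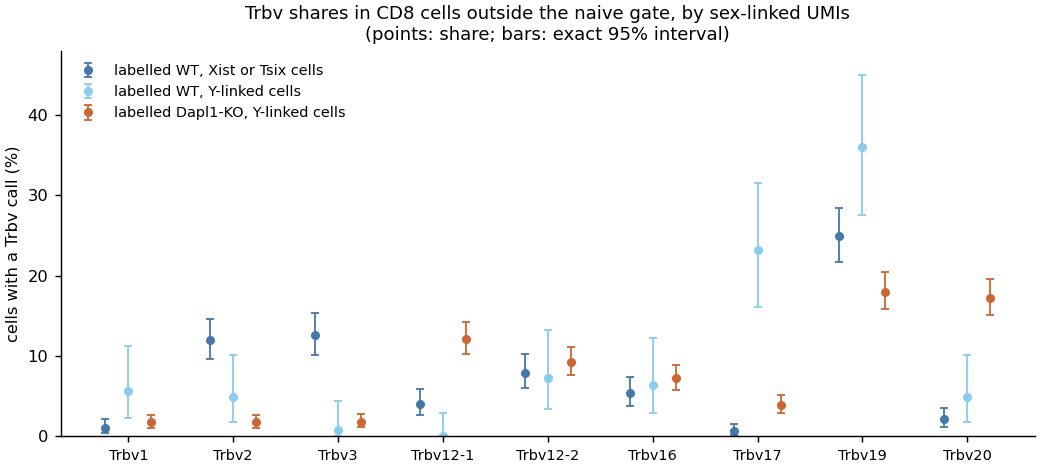
Percent of Trbv-called CD8 cells outside the naive gate that carry each segment, for cells with Xist or Tsix UMIs alone and with Y-linked UMIs alone in the WT-labelled library and with Y-linked UMIs alone in the Dapl1-KO-labelled library, with exact 95% intervals. Trbv17 stands apart in the Y-linked cells labelled WT (23.2%) and Trbv20 in the Dapl1-KO-labelled library (17.2%).

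A second beta segment was common among cells with enough UMIs to show one. Of kept cells with at least 2 Trbv UMIs, 215 of 569 (37.8%) in the WT-labelled library and 317 of 712 (44.5%) in the Dapl1-KO-labelled library held 2 segments, against 46.9% and 66.0% of the cells removed as doublets. Trbv19 and Trbv29 occurred together in 48 cells of the Dapl1-KO-labelled library, where the product of their shares gives 32.3, and in 2 of the WT-labelled library. Of the 48, 43 were CD8 cells, 25 of them cycling, and all 48 had Y-linked UMIs alone. Of the 17 with a Trav call, 8 had Trav8-2, which the annotation calls a pseudogene, and 6 Trav7-1. Trav8-2 and Trav7-1 also occurred together in 13 cells, against 1.72 from the product of their shares, though 107 Trav rows lie between them. The median Trbc1 share of the 48 cells was 0%. Trbv12-2 and Trbv19 occurred together in 48 cells of the Dapl1-KO-labelled library and 11 of the other. Both lie below the 72.5 and 54.7 cells that the product of their shares gives. The neighbours Trbv12-2 and Trbv13-2, which lie 2031 bases apart, did so in 28 and 10 cells, where the product gives 28.7 and 12.4. Cells with 1 UMI, which cannot show 2 segments, count in these products. A cell with equal UMIs of 2 segments got no call and is in none of the shares above.

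As expression levels, the V segments lay low. None of the 163 reached 20 CPM in any state, the level at which 2.24% of naive, 2.35% of effector, 1.65% of PD-1 TIM-3, 0.659% of cycling, 1.94% of CD4 and 1.73% of regulatory T cell genes passed 2-fold between the libraries. At 1 to 20 CPM, a range chosen after this was seen, 22 of 31 segments in PD-1 TIM-3 cells passed 2-fold in either direction against 11.8% of all genes, and 12 of 18 in cycling cells against 5.18%. The level was read in the library where a gene is higher, so a gene can enter through that library alone, which partly fixes these counts. All genes entered by the same rule but were not matched to the segments by level within the range. Trbv20, for example, stood at 0.817 and 5.70 CPM in PD-1 TIM-3 cells. The share of all genes is thus only a rough reference. In naive cells 14 of 40 segments passed 2-fold against 12.1%, and in effector cells 8 of 38 against 13.8%. In CD4 cells 16 of 43 did against 13.9% and in regulatory T cells 17 of 37 against 16.5%. Counted by an exact interval of the ratio that leaves out no change, the members numbered 22 of 31 in PD-1 TIM-3 cells (21.7% of all genes), 17 of 18 in cycling cells (42.5%) and 14 of 40 in naive cells (25.3%). They numbered 2 of 38 in effector cells (6.85%), 10 of 43 in CD4 cells (10.1%) and 10 of 37 in regulatory T cells (22.3%). These intervals take each UMI as a separate draw, which the UMIs of 1 cell are not, so they can be too narrow. With the level taken as the mean of the libraries, 11 of 17 segments passed 2-fold in PD-1 TIM-3 cells against 8.8% of all genes, and 8 of 14 in cycling cells against 3.95%. The counts were then 7 of 28 in naive cells (9.13%), 8 of 24 in effector cells (15.6%), 13 of 33 in CD4 cells (13.9%) and 12 of 27 in regulatory T cells (12.5%).

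Trbv20 UMIs went from 13 to 194 in cycling cells, a log2 ratio of 3.17 (2.36 to 4.10) for the Dapl1-KO-labelled library over the WT-labelled library, and from 8 to 62 in PD-1 TIM-3 cells (2.80, 1.74 to 4.08). Trav3-3 gave 1.70 (1.28 to 2.14) in cycling cells and 3.11 (1.99 to 4.48) in PD-1 TIM-3 cells, and Trbv19 -0.49 in cycling cells. The intervals of these ratios also take UMIs of 1 cell as separate draws and can be too narrow. Summed over all rows, Trbv gave log2 ratios of 0.29 in naive, -0.12 in effector, 0.39 in PD-1 TIM-3, -0.15 in cycling, 0.50 in CD4 (28.8 to 40.8 CPM) and 0.51 in regulatory T cells (14.2 to 20.2 CPM). Trav gave -0.05, 0.20, 0.13, 0.05, 0.27 and 0.12 in the same order.

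The genes that V segments work with were taken from a fixed list of 11. They are the constant regions Trac, Trbc1 and Trbc2, the signalling chains Cd3d, Cd3e, Cd3g and Cd247, the pre-receptor chain Ptcra, and Rag1, Rag2 and Dntt, which build the joints. In each state 7 of the 11 reached 20 CPM in a library and 0 passed 2-fold. All 7 were higher in the Dapl1-KO-labelled library in naive, effector, CD4 and regulatory T cells, and 6 of 7 in PD-1 TIM-3 and cycling cells, where Cd247 was the exception. Their median log2 ratio was 0.51 in naive, 0.31 in PD-1 TIM-3 and 0.17 in cycling cells, against 0.09, 0.03 and 0.03 for all genes at that level. Trbc1 went from 334 to 533 CPM in naive, from 576 to 921 in PD-1 TIM-3 and from 518 to 689 in cycling cells. Rag1 and Rag2 had 0 UMIs in all 6 states of both libraries and Dntt at most 3. Ptcra had 36 and 1 UMIs in PD-1 TIM-3 cells and 56 and 72 in cycling cells.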

How the data were processed

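The authors deposited UMI counts per gene and barcode as 10x 3′ v3 matrices, 1 per library, made with Cell Ranger 5.0.0 on GRCm38 (mm10), per the submitters' processing notes. Alignment settings and handling of near-identical segments are not given in the sources used here. From these counts, each barcode present in both libraries was reduced to its larger copy, provided that this held 2 times as many UMIs or more, and 21 such barcodes were dropped for lacking one. A minimum of 500 genes and a maximum of 10% mitochondrial UMIs then applied (9865 and 11156 cells left), and Scrublet (scanpy 1.11.5) scores were used to remove 873 and 1058 cells (8.85% and 9.48%) at a rate of 0.8% per 1000 cells. States were gated on UMI detection, not clustered. Regulatory T cells carried Foxp3 and no Cd8a or Cd8b1, CD4 cells carried Cd4 and neither Foxp3, Cd8a nor Cd8b1, and CD8 cells carried Cd8a or Cd8b1 and neither Cd4 nor Foxp3, all with a Cd3 gene. A further marker of the naive gate is not reported here.

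The members, lists and gates were chosen with earlier results of these data known. Named segments are, per state and library, the 3 with the most called cells, up to 5 with the largest difference in share, and up to 5 leading pairs. Trbv17, and segments named for intervals apart or for occurring together, were added after their values were seen. The planned natural killer gate held 19 and 24 cells with 0 Trbv or Trav UMIs, so a wider gate (Ncr1, no Cd3d, Cd3e, Cd4, Cd8a or Cd8b1) was added. The 1 to 20 CPM range, the pooling of CD8 cells outside the naive gate and the split by sex-linked genes were also added after the data were seen. Standard errors of sharing follow the formula of Simpson, and a limit beside a count of 0 is 3 counts of the total. Intervals, standard errors and limits cover counting error only. Calls, ratios and intervals were checked on simulated data. Alternatives were the UMIs and share needed for a call, all barcodes, barcodes of 1 library, stricter cell filters, thinning, segment subgroups and cells with 1 kind of sex-linked UMI. Tools were Python 3.11.15, numpy 2.4.6, scipy 1.17.1 and pandas 2.3.3.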

Additional observations from a re-analysis of the deposited data

How the results depend on the processing

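No paired analysis was possible because each label has 1 library. Of 235 values of sharing under alternatives 24 moved, of 1393 segment shares 159 did, and of 148 differences between the libraries 5 changed direction and 38 lost the gap between intervals. The Trbv20 and Trav3-3 differences in PD-1 TIM-3 and cycling cells kept their direction under every alternative that gave a value (12.8 to 21.7 points for Trbv20 in cycling cells). Joined subgroups were applied to sharing and to counts of intervals apart, not to shares or differences of single segments. The causes of the changes below were not tested.

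Trbv sharing in cycling cells was 30.6% with Y-linked cells alone in the WT-labelled library, and 16.9% with 2 UMIs needed and 16.3% thinned in the Dapl1-KO-labelled library. With 2 UMIs it was 17.1% in CD4 cells of the latter. Trav sharing by subgroup (all rows of the same subgroup number joined) was 8.52% and 9.10% in naive and 8.60% and 9.49% in effector cells. It was 11.1% and 14.2% in PD-1 TIM-3 and 12.6% and 13.4% in cycling cells. CD4 cells had 8.45% and 8.43%, and regulatory T cells 9.39% and 8.93%. By row, Trav sharing in PD-1 TIM-3 cells was 12.1% with Y-linked cells alone in the WT-labelled library (32 called cells). In the Dapl1-KO-labelled library it was 4.95% with 2 UMIs, 16.8% with barcodes of 1 library and 5.23% thinned. In cycling cells there it was 14.4% with 2 UMIs and 5.26% with barcodes of 1 library. In regulatory T cells with 2 UMIs it was 7.48% and 3.90%.

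Trbv segments with intervals apart in PD-1 TIM-3 cells (6) numbered 1 with 2 UMIs, 2 with barcodes of 1 library, 0 thinned and 2 with Y-linked cells alone, and in cycling cells (8) 4 with 2 UMIs, 1 thinned and 5 with Y-linked cells. With all barcodes 1 Trbv segment was apart in another state. Trav segments in PD-1 TIM-3 cells (4) numbered 0 with 2 UMIs, 0 thinned, 2 by subgroup and 2 with Y-linked cells, and in cycling cells (11) 4 with 2 UMIs, 6 with all barcodes, 3 thinned, 5 by subgroup and 3 with Y-linked cells. In the other states, with no minimum share 2 Trav segments were apart, and 1 by subgroup.

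With Y-linked cells alone, the differences that changed direction were those of Trbv3 in PD-1 TIM-3 (1.36 points) and cycling cells (0.454 points). That of Trav14d-3-dv8 in cycling cells (0.368 points) also did. In that order they rest on 34, 57 and 50 called cells in the WT-labelled library, too few to give a direction. The difference of Trbv19 in cycling cells changed direction with 2 UMIs (2.03 points) and thinned (3.64 points). Segments past 2-fold (0) numbered, in naive, effector, PD-1 TIM-3, cycling, CD4 and regulatory T cells, 20, 8, 32, 44, 16 and 22 with no minimum level and 14, 8, 22, 12, 16 and 17 at 1 to 20 CPM in the higher library, and 7, 8, 11, 8, 13 and 12 by the mean of the libraries, chosen after seeing the data. Cells with Xist or Tsix alone in the Dapl1-KO-labelled library (9) and samples with fewer than 20 called cells gave no value. The number of UMIs per cell limits all calls.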
